A study of Mus musculus with 11 samples.

Results

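The genes described here carry the signal of corticotropin (ACTH) into the adrenocortical cell: Mc2r, Mrap, Gnas, Prkar1a, Prkaca, Prkacb, Pde8a, Pde8b, Creb1 and Crem. They were chosen as genes of that pathway, and every probe whose RefSeq accession belongs to 1 of them was taken, which gave 10 of the 17370 genes and 20 of the 41174 probes on the array. The study sorted green fluorescent cells from the adrenal glands of mouse embryos between E17.5 and E18.5 and hybridised the amplified RNA of each mouse to a 1-colour array. The knockout group held 4 Star-/- mice, all labelled male, and the wild-type group 7 Star+/+ mice, 3 labelled male and 4 female. The product of Star delivers cholesterol to the inner mitochondrial membrane, where steroid synthesis starts. The promoter of the fluorescent reporter, and whether all mice carried it in the same form, are not given in the sources used here.

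ACTH binds the receptor encoded by Mc2r, which reaches the cell surface only with its accessory protein, encoded by Mrap. The receptor activates the stimulatory G protein whose alpha subunit comes from Gnas, adenylyl cyclase then makes cyclic AMP, and cyclic AMP frees the catalytic subunits of protein kinase A from the regulatory ones. The kinase phosphorylates the transcription factor CREB, and phosphodiesterases, in the adrenal cortex among them PDE8A and PDE8B, break cyclic AMP down again. Through this route ACTH drives steroid synthesis in the cortex.

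The arrays lay on 3 slides. Slide 1 held knockout arrays 1 and 2 and wild-type arrays 1 and 2, slide 2 held knockout arrays 3 and 4 and wild-type array 3, and slide 3 held wild-type arrays 4 to 7. With slide as a term, each difference between genotypes comes from slides 1 and 2, that is from 4 knockout and 3 wild-type arrays. Wild-type array 3 was labelled female and knockout arrays 3 and 4 male, so genotype and sex cannot be told apart within slide 2. Wild-type array 3 was the dimmest, with a 75th percentile of 115, and correlated least with the rest, at a median of 0.877. Without it slide 2 has no wild-type array, so the fitted difference is then the value within slide 1 and not a further check. The count of probes well above background ran from 19066 to 26408, and precision is limited by the small number of arrays. Wild-type array 4 was labelled female but had the Y-linked Ddx3y at 2.70. Ddx3y lay between 2.26 and 3.32 on the arrays labelled male and between −6.74 and −5.27 on the other 3 labelled female. Xist, at −6.99 in wild-type array 4, did not separate the labels. It was at −6.49 in wild-type array 6, labelled female, and at −6.03 in knockout array 4, labelled male. Star itself was at 1.58, 2.59, 2.05 and 3.27 in knockout arrays 1 to 4, against 3.21, 5.87 and 7.86 as the lowest, median and highest level of the wild-type arrays. Its difference was −4.70 ± 0.93 on the brighter probe (SE, limma adjusted p = 0.0583) and −5.38 ± 0.91 on the other (adjusted p = 0.0367), and since the probes' place relative to the deleted part is not known here, this is a limited check of the labels. All levels are log2 signals relative to the 75th percentile of the array, all differences are knockout minus wild-type on that log2 scale, and the level of 1 probe cannot be set against that of another.

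No probe of the 10 genes passed an adjusted p of 0.05 between genotypes. Of the 20 probes, 18 were well above background on at least 4 arrays and were tested, and these 18 cover all 10 genes. The background is low as well: 149 of 25882 probes tested, 0.576%, passed (limma with Benjamini-Hochberg adjustment over all probes), 0.464% higher and 0.112% lower in knockout arrays. At an unadjusted p under 0.05 there were 5 of the 18, against 17.2% of all probes tested. The fitted differences, which come from slides 1 and 2, were negative for 13 of the 18 and positive for 5, with a median of −0.94, beside −0.12 over all probes tested, of which 14315 were negative. By the plain means over all 11 arrays, 10 of the 18 were lower in knockout arrays and 8 higher. The direction was the same within slide 1 and within slide 2 for 14 of the 18, against 62.4% of all probes. These probes are not independent of each other, since 5 belong to Crem and 3 to Creb1. Knockout and wild-type levels overlapped for all 18 over the 11 arrays, where 7.14% of all probes did not overlap. Within slides 1 and 2 they did not overlap for 4 of the 18, against 19.8% of all probes, and all 4 (Mrap, Pde8b and 2 of Crem) were lower in knockout arrays, against 10.6%.

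**Figure D1:**
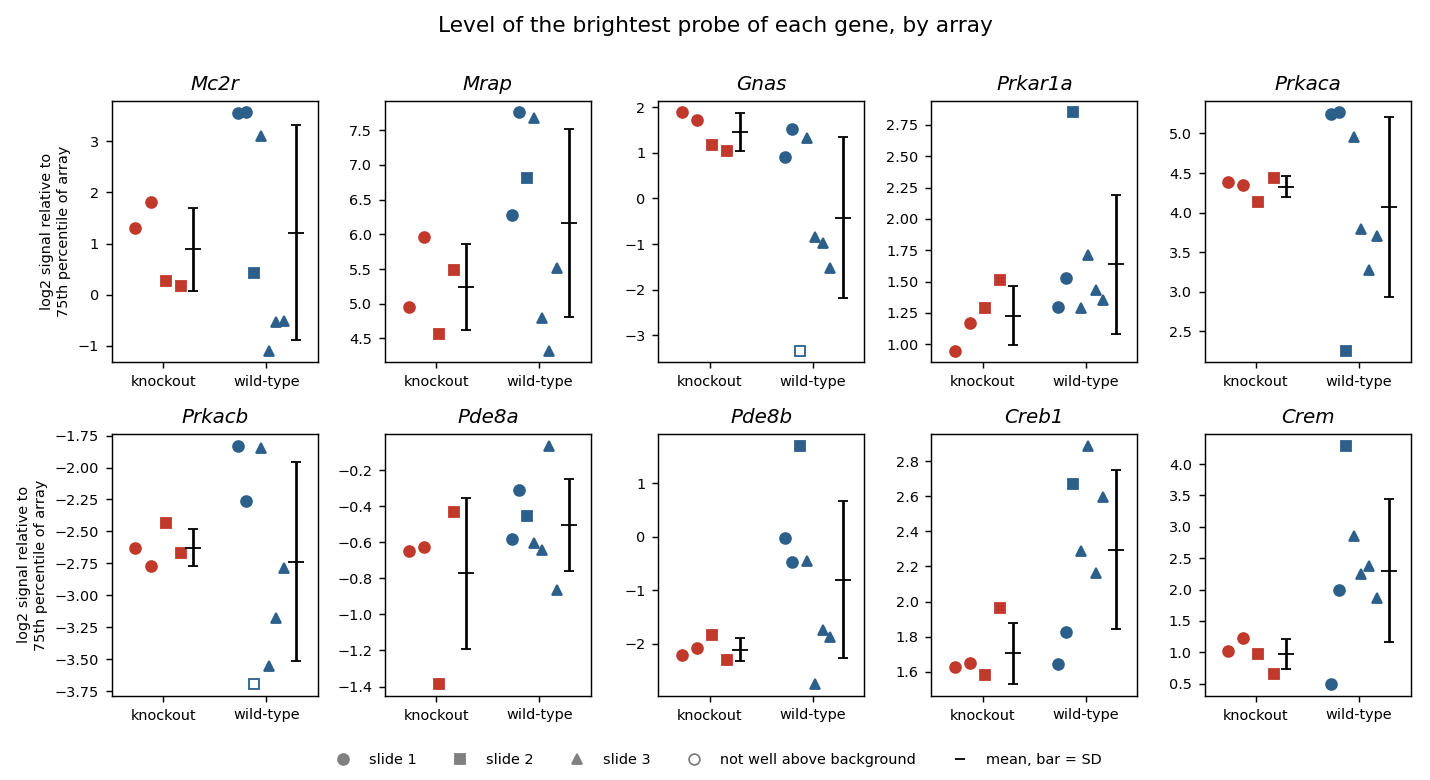
Level of the brightest probe of each gene (y axis, log2 signal relative to the 75th percentile of the array) in 4 knockout and 7 wild-type arrays, 1 point per array, shaped by slide, with the mean and SD beside them; each panel has its own scale. Knockout levels of Pde8b sit between −2.31 and −1.83, below those of wild-type arrays 1 to 4 and within the range of wild-type arrays 5 to 7.

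Mc2r, the ACTH receptor, was at 1.30, 1.82, 0.27 and 0.16 in knockout arrays 1 to 4. In wild-type arrays its lowest, median and highest levels were −1.09, 0.42 and 3.56. The knockout levels lay inside the wild-type range. Within slide 1 both knockout arrays were below both wild-type arrays, at 3.55 and 3.56, and the difference was −2.00. Within slide 2 the knockout arrays and wild-type array 3, at 0.42, lay close together, with a difference of −0.21. The fitted difference was −1.28 ± 0.91 (SE, adjusted p = 0.491), with a 95% interval from −3.32 to 0.75. It was −2.00 without wild-type array 3.

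Mrap, whose product carries the receptor to the cell surface, was a bright probe on every array. Its levels were 4.95, 5.97, 4.56 and 5.49 in knockout arrays 1 to 4, against 4.33, 6.27 and 7.76 as the lowest, median and highest of the wild-type arrays. On slides 1 and 2 all knockout levels were below the wild-type ones, whose lowest was 6.27, but the wild-type arrays 5 to 7 of slide 3, at 4.79, 4.33 and 5.51, lay among the knockout levels. The difference was −1.65 ± 0.77 (SE, adjusted p = 0.309; 95% interval −3.38 to 0.08). The slides gave like values for Mrap, −1.56 on slide 1 and −1.79 on slide 2.

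The wild-type arrays of slide 3 differed widely among themselves. On it, Mc2r was at 3.09 in wild-type array 4 and at −1.09, −0.53 and −0.52 in wild-type arrays 5 to 7, and Mrap was at 7.67 in array 4. The same 4 arrays were apart in the markers of the sorted cells. The summed level of 6 adrenocortical markers (Star left out) was 9.74 in array 4 and 6.93, 6.61 and 7.54 in arrays 5 to 7, and that of 8 chromaffin cell markers was 6.64 in array 4 and 10.95, 10.81 and 10.53 in arrays 5 to 7. Over the groups, the adrenocortical sum ran from 6.76 to 8.66 in knockout and from 6.61 to 10.37 in wild-type arrays, and the chromaffin sum from 2.35 to 7.20 in knockout and from 6.64 to 10.95 in wild-type arrays. Each sum is the log2 of added signals, so the brightest probes weigh most, here Fdx1 and Hsd3b1, and Chga and Chgb. Wild-type array 3 had the sum of 10.37. There Fdx1, Hsd3b1 and Nr0b1 were above wild-type arrays 1, 2 and 4, but Nr5a1, Cyp11a1 and Cyp21a1 were below them. The sum of 11 of 12 macrophage markers ran from 9.05 to 9.38 in knockout and from 4.17 to 7.39 in wild-type arrays, without overlap. Nr5a1, Cyp11a1, Hsd3b1 and Nr0b1, which define steroidogenic cells, were above background on all 11 arrays, whereas Cyp21a1, the 21-hydroxylase gene, was so on 6. Above background on all 11 were also Th, Chga and Pnmt of chromaffin cells and Adgre1 and Csf1r of macrophages. In such sorted bulk samples, fewer cells of a type and less RNA per cell cannot be told apart, and the part of these markers in the differences of Mc2r, Mrap and the other genes was not tested.

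**Figure D2:**
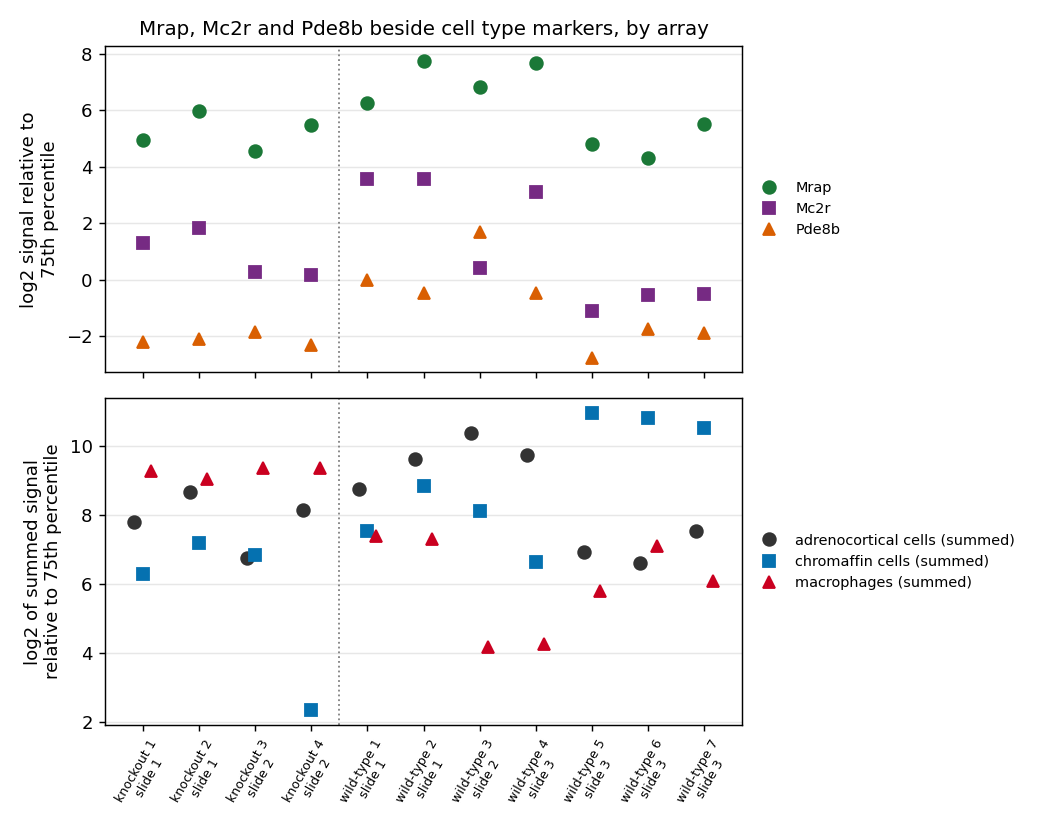
Upper panel: levels of Mrap, Mc2r and Pde8b (log2 signal relative to the 75th percentile) on each of the 11 arrays, knockout left of the dotted line. Lower panel: log2 of the summed relative signal of adrenocortical, chromaffin and macrophage markers on the same arrays; wild-type arrays 5 to 7 have the highest chromaffin sums, between 10.53 and 10.95, and the knockout arrays the highest macrophage sums, between 9.05 and 9.38.

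Gnas, the stimulatory G protein alpha subunit gene, comes from an imprinted locus with several overlapping transcripts. Its 3 probes were matched to it by RefSeq accession, and which of the transcripts each detects is not known here. On probe A_52_P112188, the brightest, levels were 1.88, 1.71, 1.18 and 1.03 in knockout arrays 1 to 4. The wild-type levels had a lowest of −3.33, a median of −0.85 and a highest of 1.52. The lowest was wild-type array 3, the only one of the 11 on which this probe was not well above background. The difference was 2.13 ± 0.86 (SE, adjusted p = 0.251; 95% interval 0.22 to 4.04), and 0.59 without wild-type array 3, which is also the value within slide 1. Within slide 2 the knockout arrays were at least 18.6-fold higher, with the wild-type signal put at the lowest signal above background of its array; this rests on 1 wild-type array. A term for the difference between slides 1 and 2 passed for this probe (limma, adjusted p = 0.0290), which it did for 8.8% of all probes and for 2 of the 18.
A dim second probe, A_52_P219393, differed by 0.19 ± 0.30 (SE, adjusted p = 0.772), and the third, A_52_P190394, was above background on only 2 arrays and was not tested.

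Prkar1a encodes the type I alpha regulatory subunit, which holds the catalytic subunits of protein kinase A inactive. Its levels were 0.95, 1.17, 1.29 and 1.51 in knockout arrays 1 to 4, against a lowest of 1.29, a median of 1.44 and a highest of 2.85 in wild-type arrays. The highest was wild-type array 3, and without it all 10 arrays lay between 0.95 and 1.71. The difference was −0.79 ± 0.34 (SE, adjusted p = 0.275; 95% interval −1.55 to −0.03), −0.35 within slide 1 and −1.45 within slide 2. Leaving out wild-type array 3 gave −0.35.

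CREB binds the cyclic AMP response element, whose palindrome TGACGTCA and shorter core TGACG were sought on both strands of the RefSeq promoter windows, from 250 bases before to 50 after each start (GRCm38.p6). The palindrome contains the core on each strand. Of the 32851 windows in the table, 1.79% hold the palindrome and 20.81% the core. The table has 22 windows for 7 of the 10 genes; Mc2r, Mrap and Crem have no entry. The palindrome was in 2 overlapping windows of Prkar1a and in none of the other 20, and the core in 10 windows of 6 genes. AAGGTCA, the motif bound by NR5A1, is in 4.72% of all windows and in 0 of the 22. The Prkar1a window with the palindrome in front of the start is printed because it is the member with the full element, and the Pde8b window with the core because Pde8b had the smallest p among the members. Capitals mark the core and the palindrome. The first is chr11:109650699-109650998 on the plus strand, with the core alone at bases 64 to 68 and the palindrome at bases 202 to 209 (109650900 to 109650907). The second is chr13:95223001-95223300 on the minus strand, with the core at bases 289 to 293, past the start. A match is a run of letters and not a measured binding site.
Prkar1a: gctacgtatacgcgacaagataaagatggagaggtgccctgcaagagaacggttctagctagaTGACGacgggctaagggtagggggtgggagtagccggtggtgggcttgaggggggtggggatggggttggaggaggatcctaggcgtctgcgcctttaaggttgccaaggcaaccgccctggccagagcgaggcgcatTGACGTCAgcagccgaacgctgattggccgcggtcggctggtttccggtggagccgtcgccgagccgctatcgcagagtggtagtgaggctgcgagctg
Pde8b: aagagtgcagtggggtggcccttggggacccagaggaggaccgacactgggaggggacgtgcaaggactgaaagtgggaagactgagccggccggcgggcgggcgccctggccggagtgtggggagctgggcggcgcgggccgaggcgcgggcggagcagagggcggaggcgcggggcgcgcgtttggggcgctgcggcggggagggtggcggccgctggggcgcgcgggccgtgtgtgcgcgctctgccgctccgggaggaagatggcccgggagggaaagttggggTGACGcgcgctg

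Prkaca encodes the catalytic alpha subunit of the kinase. The knockout arrays lay close together, at 4.39, 4.34, 4.13 and 4.43, whereas the wild-type arrays had a lowest of 2.26, a median of 3.79 and a highest of 5.27. Wild-type arrays 1, 2 and 4, at 5.25, 5.27 and 4.95, were above all knockout arrays and the other 4 below them. The SD was 0.13 over the knockout and 1.13 over the wild-type arrays. The fitted difference of 0.28 ± 0.62 (SE, adjusted p = 0.848; 95% interval −1.1 to 1.65) joins opposite values, −0.89 within slide 1 and 2.03 within slide 2, and these differed from each other (limma, adjusted p = 0.0301 for the slide difference). Without wild-type array 3 the value was −0.89.

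Prkacb, the catalytic beta subunit gene, had a pair of probes that disagreed. On probe A_52_P432680 the levels were −2.63, −2.77, −2.43 and −2.67 in knockout arrays, against a lowest of −3.69, a median of −2.79 and a highest of −1.83 in wild-type arrays, and the difference was 0.06 ± 0.51 (SE, adjusted p = 0.963). It was −0.65 without wild-type array 3, where the probe was not above background, −0.096 without knockout array 3 and −0.016 without knockout array 4. Within slide 2 its knockout mean was at least 1.47-fold higher than wild-type array 3. On probe A_51_P380215, above background on 3 of 4 knockout and 4 of 7 wild-type arrays, the levels were −4.80, −5.86, −3.98 and −1.26 in knockout arrays and −6.69, −3.44 and −0.82 as lowest, median and highest in wild-type arrays. There the difference was −2.23 ± 0.87 (SE, adjusted p = 0.240), −2.52 within slide 1 and −1.80 within slide 2. The range within the knockout group, from −5.86 to −1.26, was wider than that difference.

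Pde8b, a phosphodiesterase with high affinity for cyclic AMP, had the smallest p of the 18 probes. It was at −2.21, −2.09, −1.83 and −2.31 in knockout arrays 1 to 4, against a lowest of −2.76, a median of −0.48 and a highest of 1.70 in wild-type arrays. On slides 1 and 2 the wild-type arrays 1 to 3 were at −0.02, −0.48 and 1.70, all above the knockout arrays. On slide 3, array 4 was at −0.45 and arrays 5 to 7, with the high chromaffin and low adrenocortical marker sums, were at −2.76, −1.74 and −1.87, in the range of the knockout arrays. The difference was −2.65 ± 0.58 (SE; 95% interval −3.95 to −1.35), −1.90 within slide 1 and −3.78 within slide 2, and its adjusted p of 0.0775 missed the threshold. It passed in 6 of 27 alternatives, with values between 0.00365 and 0.712 among the 27, for example 0.0321 when wild-type array 4 was left out. Without wild-type array 3 the difference was −1.90, with an adjusted p of 0.712.

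Pde8a, its close relative, was above background on all 11 arrays and varied little. Its levels were −0.65, −0.63, −1.39 and −0.43 in knockout arrays, against −0.86, −0.58 and −0.07 as lowest, median and highest of the wild-type arrays. The difference was −0.29 ± 0.36 (SE, adjusted p = 0.701), and its 95% interval, from −1.09 to 0.51, leaves room for changes of either sign. Whether Pde8a and Pde8b differ in their response was not tested.

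Creb1 encodes CREB, the factor that the kinase phosphorylates. Its brightest probe, A_51_P101621, was at 1.63, 1.65, 1.58 and 1.97 in knockout arrays, against 1.65, 2.29 and 2.89 as lowest, median and highest in wild-type arrays. The difference was −0.42 ± 0.34 (SE, adjusted p = 0.552; 95% interval −1.18 to 0.34), with −0.097 within slide 1 and −0.90 within slide 2. On the dim probes A_52_P517730 and A_52_P174396 the differences were 0.26 ± 1.1 and −0.074 ± 0.55 (SE, adjusted p = 0.928 and 0.960). Leaving out wild-type array 1 turned that of A_52_P174396 to 0.60, and leaving out knockout array 2 to 0.19, so its direction rested on single arrays.

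Crem encodes a relative of CREB, and an internal promoter of the gene gives the short repressor ICER, which cyclic AMP induces. Of its 6 probes, 5 were above background on all 11 arrays and A_52_P367026 on none. All 5 had lower means in knockout arrays on slides 1 and 2, with differences between −1.66 and −1.09, and none passed. On probe A_51_P423976 the levels were 1.02, 1.23, 0.97 and 0.66 in knockout arrays, against 0.50, 2.25 and 4.29 as lowest, median and highest in wild-type arrays. Wild-type array 1 was below every knockout array and all other wild-type arrays were above them. Its difference was −1.46 ± 0.67 (SE, adjusted p = 0.301), made up of −0.11 within slide 1 and −3.47 within slide 2. Probe A_52_P460957 differed by −1.66 ± 0.67 (SE, adjusted p = 0.251), −0.69 within slide 1 and −3.10 within slide 2. Without wild-type array 3 the values of these probes were −0.11 and −0.69.

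The other 3 Crem probes ordered the wild-type arrays in another way. Probe A_52_P391095 was at 1.11, 1.31, 0.82 and −0.42 in knockout arrays. In wild-type arrays 1 to 4 it was at 1.53, 2.40, 2.07 and 2.31 and in arrays 5 to 7 at −0.50, 0.72 and 0.06, so that arrays 5 to 7 lay below arrays 1 to 4, as they did for Mc2r. On A_51_P423976 the same arrays 5 to 7 were at 2.25, 2.38 and 1.86, within the range of arrays 1 to 4. A_52_P391098 and A_52_P391103 followed A_52_P391095, with arrays 5 to 7 between −2.37 and −0.19 on these probes and arrays 1 to 4 between 0.51 and 1.91. Their differences between genotypes were −1.20 ± 0.67, −1.09 ± 0.72 and −1.1 ± 0.76 in the order named (SE, adjusted p = 0.383, 0.460 and 0.480). Which Crem transcripts each probe detects is not known here, so the values do not separate ICER from the longer forms.

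**Figure D3:**
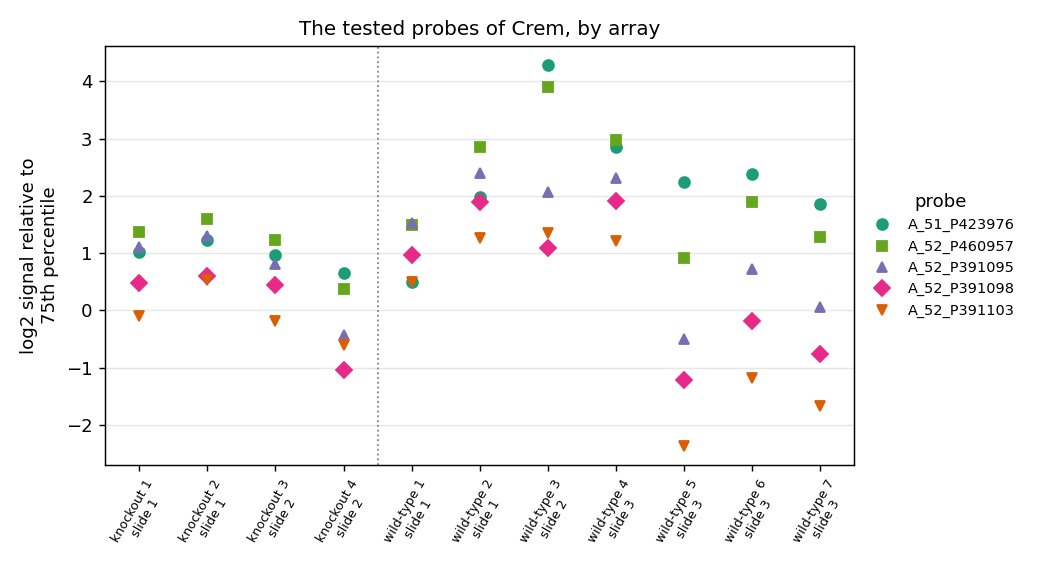
Levels of the 5 tested Crem probes (y axis, log2 signal relative to the 75th percentile) on each array, knockout left of the dotted line. In wild-type arrays 5 to 7 probe A_51_P423976 stays between 1.86 and 2.38 while A_52_P391103 lies between −2.37 and −1.17.

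**Figure D4:**
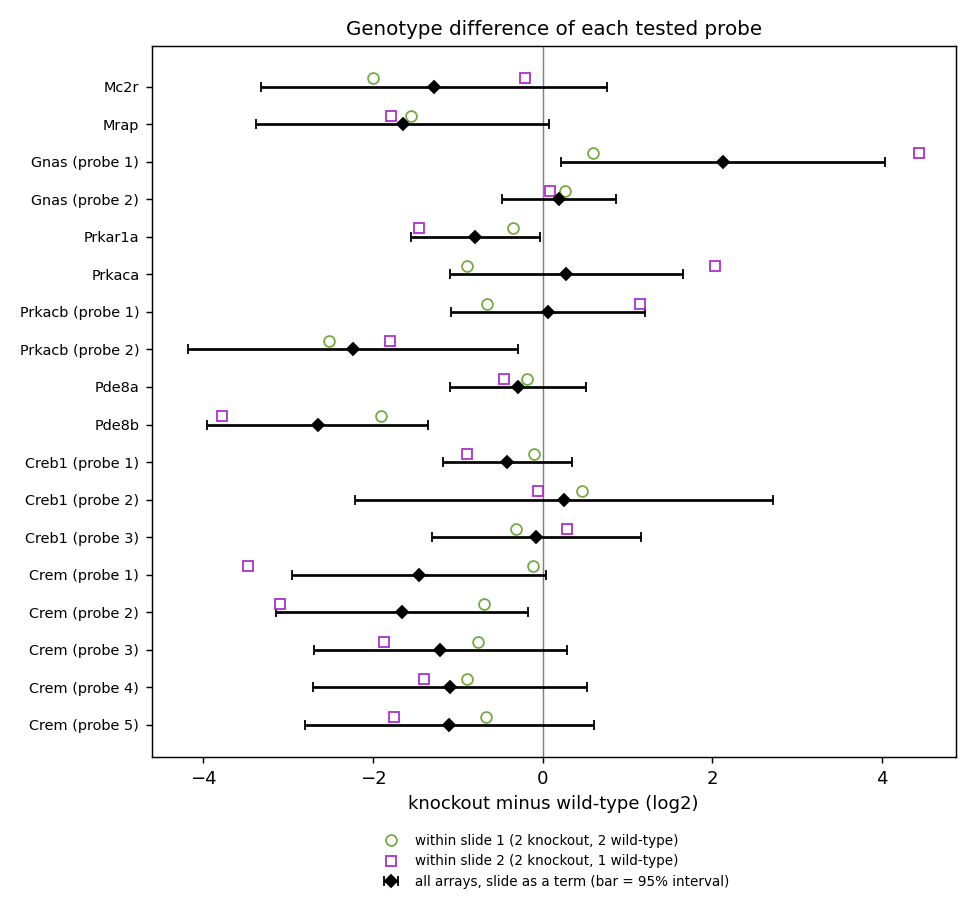
Knockout minus wild-type difference (x axis, log2) of the 18 tested probes, numbered within a gene from the brightest, as the fitted value with its 95% interval and as the values within slide 1 and within slide 2. The brightest Gnas probe is at 0.59 within slide 1, and its slide 2 point, 4.44, is set against a wild-type signal not above background, so only the bound of 4.21 holds there; the slide values of Prkaca have opposite signs.

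Further genes of the pathway were read from 11 lists, 124 genes of which 116 were on the array under these names and 100 were tested. None of the 100 passed at its brightest probe (limma adjusted p over all probes), where 0.576% of all probes tested did. An unadjusted p under 0.05 was found for 25 of the 100, against 17.2% of all probes tested. Their median difference was 0.037, beside −0.12 over all probes. Star was on the list of steroidogenic genes and had the smallest adjusted p of the 100, while its other probe passed, as given above.

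Among the melanocortin receptors other than Mc2r, the differences of Mc3r, Mc4r and Mc1r were 0.33 ± 0.30, −0.34 ± 0.32 and 0.19 ± 0.49 (SE), and Mc5r was not tested. In what follows, counts of list genes are of the sign of the fitted difference from slides 1 and 2. Of 15 tested G protein subunit genes, 7 differences were positive and 8 negative, with a median of −0.012. Gnai1, an inhibitory alpha subunit, ran from 0.90 to 1.11 in knockout arrays, against 1.85 to 3.48 in wild-type arrays, with a difference of −1.61 ± 0.41 (SE, adjusted p = 0.110). The gamma subunit gene Gng2 ran from 3.86 to 4.52 in knockout arrays, against 1.02 to 3.00 in wild-type arrays, with a difference of 1.76 ± 0.53 (adjusted p = 0.152). For both, the groups did not overlap over the 11 arrays, which was so for 7.14% of all probes tested.

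The enzymes that make and break cyclic AMP had more positive than negative differences, again without a call. Of 7 tested adenylyl cyclases 5 were positive, with a median of 1.11. Adcy7 ran from 2.58 to 3.34 in knockout arrays, against −1.25 to 2.80 in wild-type arrays, and differed by 2.08 ± 0.82 (SE, adjusted p = 0.245). Adcy3, above background on 4 of 4 knockout but 1 of 7 wild-type arrays, had a fitted difference of 1.54 ± 0.47 (adjusted p = 0.151) that rests mostly on wild-type signals not above background. Of 12 tested phosphodiesterases other than PDE8, 9 were positive, with a median of 0.33. Pde4b differed by 1.48 ± 0.44 and Pde1a by 2.08 ± 0.67 (adjusted p = 0.148 and 0.171), while Pde4a, at 2.37 ± 0.78, was 0.61 within slide 1 and was not above background on wild-type array 3.

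Other kinase subunits and inhibitors were split, 4 positive and 3 negative of 7. Prkar2b, a type II regulatory subunit gene, ran from 5.17 to 6.84 in knockout arrays, against 6.04 to 9.49 in wild-type arrays, and differed by −2.04 ± 0.78 (SE, adjusted p = 0.234). Pkib, an inhibitor of the kinase, ran from 0.40 to 0.82 in knockout arrays, against −6.20 to −0.33 in wild-type arrays, where it was above background on 5 of 7, and differed by 3.03 ± 1.34 (adjusted p = 0.286). Prkx, a related kinase gene, ran from 1.35 to 1.82 in knockout arrays, against −0.59 to 0.71 in wild-type arrays, with a difference of 1.01 ± 0.36 (adjusted p = 0.207). Pkib and Prkx did not overlap between the groups, as was so for 7.14% of all probes tested, and Prkar2b did. Of the 100 tested list genes, the only others without overlap were Gnai1, Gng2, Adcy3, Pde1b and Pde7a, a share like that of all probes. Of 9 tested anchoring proteins 3 were positive and 6 negative, with a median of −0.34. The other effectors of cyclic AMP had 2 positive and 4 negative differences of 6.

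Coactivators and relatives of CREB had 7 positive and 4 negative differences of 11. Crtc2, a coactivator that cyclic AMP signalling sends to the nucleus, ran from 3.39 to 3.97 in knockout arrays, against 1.14 to 4.14 in wild-type arrays, and its difference of 1.84 ± 0.41 (SE, adjusted p = 0.0800) was 1.21 within slide 1 and 2.80 within slide 2. Creb3 differed by −1.35 ± 0.40 (adjusted p = 0.146). Of 7 genes that dampen receptors 4 were positive and 3 negative, and Grk2, a receptor kinase gene, differed by 1.60 ± 0.46 (adjusted p = 0.140).

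Transcripts known to be induced by cyclic AMP had positive differences for 10 of 12, with a median of 0.79. Steroidogenic genes that ACTH maintains had negative ones for 10 of 11, the targeted gene Star among them, with a median of −1.43. Over all 25882 probes tested, 11567 differences were positive and 14315 negative. Nr4a1, an orphan nuclear receptor gene induced by ACTH, ran from 6.87 to 7.56 in knockout arrays, against 5.91 to 7.93 in wild-type arrays, and differed by 0.98 ± 0.32 (SE, adjusted p = 0.179). Junb differed by 1.03 ± 0.39 (adjusted p = 0.232), and by 1.04 and 1.02 within slides 1 and 2. Per1, at 2.96 ± 1.08, was 0.95 within slide 1 and was not above background on wild-type array 3. Among the steroidogenic genes Hsd3b1, the 3-beta-hydroxysteroid dehydrogenase gene, differed by −2.32 ± 0.78 (SE, adjusted p = 0.187), while Cyp11a1, the side-chain cleavage enzyme gene, differed by −0.23 ± 0.87. The fitted differences of all 11 macrophage markers were positive, with a median of 3.07, and those of the 7 adrenocortical markers, Star among them, negative. Of these adrenocortical markers, Star, Hsd3b1, Fdx1, Cyp21a1 and Cyp11a1 are also on the steroidogenic list, so the results of these lists share values. Nr5a1 and Cyp11a1 were negative on slide 1 and positive on slide 2. Of these markers, each at its brightest probe, only Nr0b1 passed, at −5.58 ± 0.89 (SE, limma adjusted p = 0.0325). The part of the cells' makeup in these medians was not tested.

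**Figure D5:**
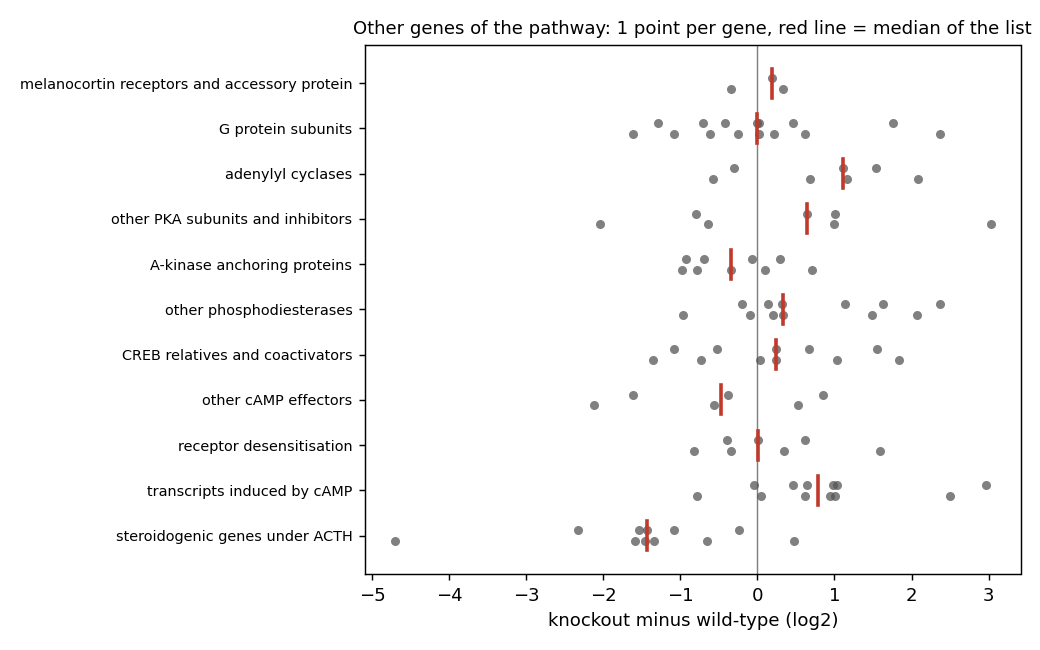
Knockout minus wild-type difference (x axis, log2) of the 100 tested genes on 11 lists of the pathway, 1 point per gene at its brightest probe, with the median of each list as a red line. Medians run from −1.43 for steroidogenic genes to 1.11 for adenylyl cyclases, and none of the probes shown passed.

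Among 13728 other named genes, those whose levels followed Mrap most closely over the 11 arrays were Rfk, Inha, Clec2l, Tmem35a and Chad, with Pearson correlations between 0.924 and 0.942. Inha encodes the alpha subunit of inhibin, a hormone made by steroidogenic cells, and Rfk encodes riboflavin kinase. Those closest to Mc2r were Pmf1, Suclg1, Tpm1, Ints7 and Ppa2, with correlations between 0.950 and 0.971, and no gene was on both lists. The arrays share slides, genotype and the marker shifts above, so these values describe likeness in this set of arrays only. Over the 7 wild-type arrays alone the same genes correlated with Mrap at 0.917 to 0.982 and with Mc2r at 0.952 to 0.992. The genes were picked for high correlation over the 11 arrays, which include these 7, so this is not a separate check.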

How the data were processed

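Each array held the Cy3-labelled RNA of 1 mouse, amplified linearly, per the labels. Per the file headers, the deposited scanner files come from Agilent Feature Extraction and give spot intensity, with background already subtracted in the processed column; they name version 10.1.1.1 for slides 1 and 2 and 10.5.1.1 for slide 3; the submitters' processing notes name 10.5.1.1. The authors' deposited series table holds log2 values; within 0.01 it equals log2 processed signal minus the 75th percentile, with each probe's median then taken off, for at least 99.84% of probes on every array. Column medians lay between −0.166 and 0.901. Deposited flags mark other properties of spots (outlier, saturated, well above background).

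Of 43379 non-control spots per array, 77 to 164 outliers were left out and 0 were saturated; spots of a probe were averaged as log2 signal, and the array's 75th percentile over 41174 probes was subtracted. Accessions of all slides were matched to a RefSeq table (GRCm38.p6): 25277 probes had 1 symbol, 92 several and 15805 none. Probes well above background on at least 4 arrays were tested with limma 3.58.1 in R 4.3.3 (lmFit and eBayes on genotype plus slide, 7 residual degrees of freedom, two-sided, Benjamini-Hochberg over all probes, threshold 0.05). A list gene was taken from its brightest probe; marker sums kept outlier spots. Differences have 95% intervals from the moderated test. For a bound, a signal not above background was raised to the lowest one above it on that array.

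Members and lists were chosen with earlier results of these data known. Named were all members, up to 3 genes per list with the smallest p (1 of them is not reported here), the 5 genes most correlated with Mrap and with Mc2r, up to 3 marker genes per list and Star; Cyp11a1, Cyp21a1, the defining marker genes, Ddx3y and Xist were chosen after their values were seen, as was the test of the difference between slides. On simulated data with the real means, spreads and design over 25823 probes, 200 of them changed, the fit called 0% of those changed 2-fold, 7.46% changed 4-fold and 40.9% changed 8-fold, with 3 false calls. Alternatives concerned slide, sex, replicate number, background (normexp, offset 50, on median spot signals), scaling, filters, 1 probe per gene, array weights, variance prior, the series table and each array left out. Further software was statmod 1.5.0 for random blocks, and Python 3.11.15 with pandas 2.3.3, numpy 2.4.6 and, for the plots, matplotlib 3.10.9.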

Additional observations from a re-analysis of the deposited data

Results flagged for a closer look

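Of 36 groups examined, that is 18 probes in each genotype, 5 held an array that stood apart from the rest of its group by Dixon's criterion, and chance alone marks about 1 in 20. For Prkar1a, wild-type array 3 was the highest, at 2.85 against 1.71 in the next. For Creb1 probe A_52_P517730, wild-type array 5 was the lowest, at −6.08 against −2.20 in the next, and the probe was not above background there. For Creb1 probe A_52_P174396, knockout array 2 was the lowest at −3.22 (−2.50 in the next) and wild-type array 1 the highest at −1.27 (−2.76 in the next). For Crem probe A_52_P391098, knockout array 4 was the lowest, at −1.04 against 0.44 in the next; this array also had the lowest sum of chromaffin markers, 2.35.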

How the results depend on the processing

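Of 473 values of the 18 probes under 27 alternatives, 439 kept direction and side of the threshold, 11 passed where the reported fit did not, and 23 changed sign. Part of the 439 could not change direction. Leaving out 1 of wild-type arrays 4 to 7, the filters, 1 probe per gene and the variance prior do not move the fitted difference. The number of probes past the threshold, 149 as reported, was 713 without a slide term, 546 with slide as a random block, 0 within slide 1 and 1452 within slide 2, where wild-type array 3 is the only wild-type array, 23 with labelled sex as a further term, where wild-type array 4 counts as female against its Y-linked transcripts, 0 with the replicate block, 726 with normexp, 277 with quantile scaling, 439 over probes above background on all arrays, 3446 with array weights, 253 with a trended robust prior, and 10 to 562 with 1 array left out. It was 14, 47, 22 and 29 without knockout arrays 1 to 4, and 18, 25, 10, 562 and 60 without wild-type arrays 1, 2, 3, 4 and 7. For the 10 genes, with 0 as reported, it was 3 within slide 2 (Gnas, Pde8b and Crem, 1 probe each; for Gnas, wild-type array 3 was not above background), 1 with normexp, 1 with quantile scaling and 1 over probes above background on all arrays (Pde8b each time), 4 with array weights (Mc2r, Mrap, Prkacb and Pde8b), 0 with the replicate block and 0 to 1 with 1 array left out. Same-numbered arrays of the genotypes had deviations that correlated at 0.184, 0.203, 0.0158 and 0.176. Only 3 of the 4 were over 0.1 and knockout arrays 1, 3 and 4 correlated best with wild-type arrays of other numbers (2, 6 and 3), so the replicate block was not taken as pairing. The median of all probes moved from −0.121 to −0.287 with normexp.

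Signs changed as follows, and the cause was not tested. Prkaca was at −0.89 within slide 1, −0.048 with sex and −0.73 with array weights. Prkacb probe A_52_P432680 was at −0.65 within slide 1, −0.20 with sex, −0.016 with the replicate block, −0.36 with normexp and −0.47 with array weights, and A_51_P380215 was at 0.12 without a slide term. Creb1 probe A_52_P517730 was at −0.052 within slide 2 and −0.097 with sex, and A_52_P174396 at 0.34 without a slide term, 0.15 with a random block, 0.29 within slide 2 and 0.27 with array weights. Gnas probe A_52_P219393 was at −0.28 with normexp and Crem probe A_52_P391103 at 0.036 without a slide term. With 1 array left out, Prkaca ran from −0.89 to 0.58, Prkacb A_52_P432680 from −0.65 to 0.35 and Creb1 A_52_P174396 from −0.63 to 0.60. Of simulated 8-fold changes 40.9% were called, so changes of that size or below could mostly not be detected.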
